A study of Drosophila melanogaster with 384 samples.

Results

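Chromatin accessibility at the genes for the basic helix-loop-helix (bHLH) protein Atonal (ato), its dimer partner Daughterless (da), the inhibitor Extramacrochaetae (emc) and the repressor Hairy (h, named hry in the annotation) was read from a count table of single cells. The members were the listed regions that overlapped 1 of the 4 genes or the 5 kb upstream of any of its transcription start sites (TSS), 29 of 68775 regions, and for ato also every listed region within 10 kb on either side, which brought the number to 39. The cells were sorted from pooled, dissociated eye-antennal discs of wandering larvae in the third instar, on the basis of GFP driven by an enhancer from an intron of senseless (sens) that Atonal targets, and were then isolated one by one in the chambers of a Fluidigm C1 for single-cell ATAC-seq. ATAC-seq marks DNA that the Tn5 transposase can reach. The strain is given as w;F2-B/CyO, a stock with the F2-B reporter in a w background over CyO, a balancer of the second chromosome, on which da also lies; whether each sorted larva carried the balancer is not stated. The design text calls the larvae wild type, and the labels give 1 group with no treatment, no animal and no chip. The sorted cells therefore count as 1 sample without replicates: no p-value was computed, and every interval below covers counting error only.

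The table held 72 of the labelled cells (the others were not analysed here) and 197425 counts, with a median of 2694.5 counts per cell and a range of 908 to 5892. In the R8 photoreceptor and furrow list (sens, boss, sca, neur, dap), 2 of 5 genes were among the top 10% of all genes by counts per kb, led by sens with 10.9 counts per kb, whereas boss, the R8 ligand of Sevenless, had 1.79. Of the photoreceptor neuron markers (gl, elav, futsch, chp), 1 of 4 was in the top 10%, gl with 15.6. By contrast, chp had 6.14 from 8 counts, elav 4.92 and futsch 2.50. Of the markers of glia (repo, moody, Gs2), hemocytes (Hml, eater, NimC1), adepithelial cells (twi, Him, zfh1), antenna (Dll, ct, ss) and peripodial membrane or head vertex (Dfd, oc), 0 of 14 were in the top 10%, but each had counts, and their densities lay between 1.13 counts per kb at eater and 5.14 at Hml. This range also took in boss, sca (3.07), elav and futsch of the R8 and photoreceptor lists. The part of glia, hemocytes and the other cell types beside R8 and photoreceptors in the values below was not tested.

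Atonal is the proneural factor of the R8 photoreceptor, the founder cell of each ommatidium. It binds the E-box, CANNTG, as a heterodimer with the ubiquitous bHLH protein Daughterless. Extramacrochaetae has the helix-loop-helix but no basic domain, so that it binds Daughterless and keeps the dimer off DNA. Hairy is a bHLH repressor of the Hairy/E(spl) class that recruits the corepressor Groucho, and together with Extramacrochaetae it holds back differentiation ahead of the morphogenetic furrow, the front of neurogenesis that crosses the eye disc. Ahead of the furrow ato is expressed broadly under a 3′ enhancer, and its restriction to single R8 cells relies on Notch signalling and on autoregulation through a 5′ enhancer. All 4 genes are transcribed from the plus strand in the release 6 (dm6) assembly.

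The 250 bases before the first TSS of ato, emc and h are printed first, because the region that holds the TSS was the densest of each window. Capitals mark E-boxes, the class of site bound by Atonal with Daughterless; sequences are RefSeq, release 6, 5′ to 3′ on the plus strand. They are chr3R:8277802-8278051 for ato, chr3L:749150-749399 for emc and chr3L:8675509-8675758 for h.
ato upstream: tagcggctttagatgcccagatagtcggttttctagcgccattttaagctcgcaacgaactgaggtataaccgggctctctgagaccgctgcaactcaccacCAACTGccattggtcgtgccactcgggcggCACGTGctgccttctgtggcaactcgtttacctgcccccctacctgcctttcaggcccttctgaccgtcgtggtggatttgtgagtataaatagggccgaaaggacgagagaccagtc
emc upstream: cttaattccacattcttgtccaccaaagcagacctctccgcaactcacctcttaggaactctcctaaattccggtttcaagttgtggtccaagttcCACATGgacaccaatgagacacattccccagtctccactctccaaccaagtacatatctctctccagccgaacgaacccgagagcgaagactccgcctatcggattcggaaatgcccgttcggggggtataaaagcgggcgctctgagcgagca
h upstream: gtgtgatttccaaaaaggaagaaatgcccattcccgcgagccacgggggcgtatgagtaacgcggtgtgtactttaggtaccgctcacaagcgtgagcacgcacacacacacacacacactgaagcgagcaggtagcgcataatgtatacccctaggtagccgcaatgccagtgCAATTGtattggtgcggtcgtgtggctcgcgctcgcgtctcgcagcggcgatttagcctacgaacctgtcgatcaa

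Of these stretches, that of ato held 2 E-boxes, 1 of them the palindrome CACGTG, a core found in 2.80% of the 19253 stretches of this length before annotated starts. The emc and h stretches held 1 E-box each. An E-box of any kind was found in 69.7% of all stretches, so its presence set none of the 3 apart. The emc stretch also held 6 matches to GAGAG (both strands, overlapping matches counted), the core of the GAGA factor, which opens chromatin at promoters; at least as many were found in 2.48% of all stretches. The ato stretch held 2 matches to GAGAG, while h had 0. GC content was 55.6% at ato, 52% at emc and 55.2% at h.

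Of the distal regions (those that do not overlap 500 bp on either side of a TSS), the densest near ato and the densest in the emc window are shown by 300 bases each, the stretch with most matches to CAGGTG at ato and to CANNTG at emc. They are chr3R:8283486-8283785, intergenic DNA 3′ of ato, and chr3L:746127-746426, upstream of emc in an intron of hng3. Capitals mark E-boxes as before; the 2 at ato read CACCTG on this strand, which is CAGGTG on the other.
ato distal: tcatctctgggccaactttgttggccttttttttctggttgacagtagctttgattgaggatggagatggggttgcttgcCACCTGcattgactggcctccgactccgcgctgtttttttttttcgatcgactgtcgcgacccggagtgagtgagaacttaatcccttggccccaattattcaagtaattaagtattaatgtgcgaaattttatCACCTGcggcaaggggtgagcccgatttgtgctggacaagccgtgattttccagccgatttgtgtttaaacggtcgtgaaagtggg
emc distal: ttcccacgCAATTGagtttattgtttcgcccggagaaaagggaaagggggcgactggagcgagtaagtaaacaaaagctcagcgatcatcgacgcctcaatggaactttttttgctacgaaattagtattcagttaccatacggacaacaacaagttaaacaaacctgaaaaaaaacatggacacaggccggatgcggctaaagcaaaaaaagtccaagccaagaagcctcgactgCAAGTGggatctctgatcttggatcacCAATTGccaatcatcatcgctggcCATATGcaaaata

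In windows of the gene and 5 kb upstream, the 4 genes were ordered emc, h, da and ato by accessibility. Counts summed over cells and divided by the summed length of the listed regions gave 9.31 counts per kb at emc (95% Poisson interval 7.51 to 11.4), 4.72 at h (3.35 to 6.45), 4.48 at da (2.87 to 6.66) and 2.24 at ato (1.12 to 4.01). The median of the 13657 protein-coding genes with a listed region was 2.81. Thus emc was at the 95.1st percentile of all genes (90.6 to 97.5 over its interval), h at the 73.97th (58.1 to 86.6), da at the 71.7th (51.02 to 87.5) and ato at the 39.4th (12.9 to 66.7). Of the 4 genes, 1 (emc) was in the top 10% of genes, which holds 10% of all genes by construction; the threshold was 7.35 counts per kb. The order depended on the window. With 10 kb on either side of every gene, emc had 6.19 counts per kb, da 4.27, ato 3.12 and h 2.56. There emc, at percentile 89.99, was no longer in the top 10%, and h was lower than ato, but within the interval of ato (2.32 to 4.10). Without the region at the TSS of CG9630, a neighbour of ato, ato had 2.26 counts per kb, lower than h. This exclusion was chosen after the values were seen.

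The density of emc exceeded that of its nearest neighbour in this order, h, by a ratio of 1.98 (exact conditional interval 1.34 to 2.95). It exceeded that of da by a ratio of 2.08 (1.32 to 3.41) and that of ato by 4.16 (2.22 to 8.62). The densities of h and da were not distinguishable (ratio 1.05, 0.62 to 1.83), nor were those of da and ato (2.0, 0.94 to 4.52). By contrast, h exceeded ato by a ratio of 2.10 (1.06 to 4.56). The 10 kb windows turned this direction round, but only with the region at the TSS of CG9630 included. Leaving out the cell with the most emc counts gave ratios of 1.77 for emc over h (1.17 to 2.71), 1.72 for emc over da (1.07 to 2.84) and 3.78 for emc over ato (1.95 to 8.19). Without this cell the interval of da over ato no longer included 1 (2.2, 1.01 to 5.15), so whether this pair differed beyond counting error depended on 1 cell, while da was higher either way. These ratios assume that counts vary between cells as chance counting does, which emc and h exceeded (below), so intervals with either gene are too narrow, and those whose lower end lies close to 1 are not firm.

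**Figure D1:**
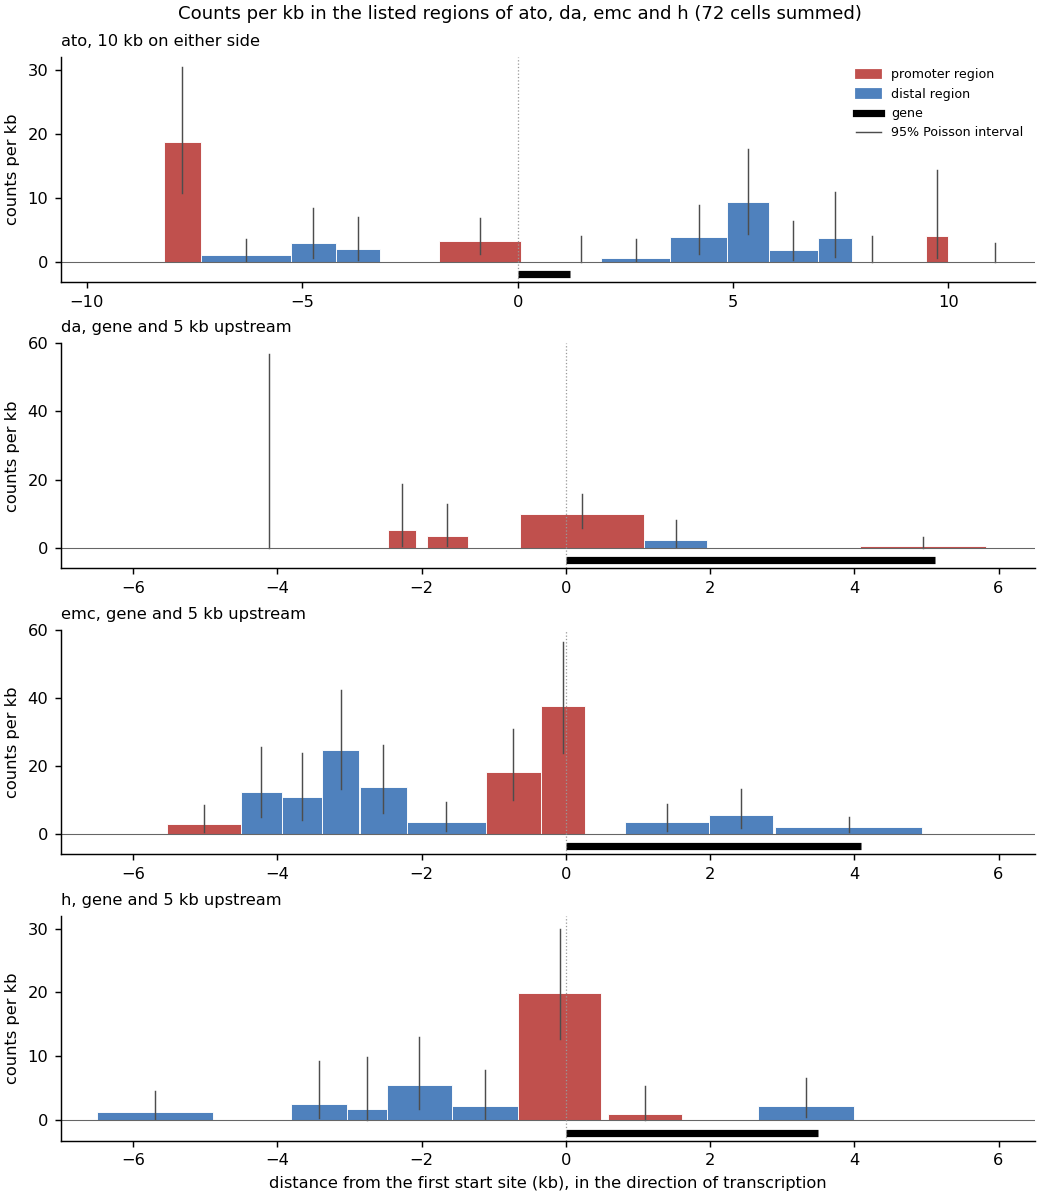
Counts per kb (y axis, 72 cells summed) in each listed region of ato, da, emc and h, drawn to scale by distance from the first TSS (x axis, kb), with promoter regions in red, distal regions in blue, the gene in black and 95% Poisson intervals as thin lines; the y scales differ and stretches with no bar and no line were not listed. The region at the TSS reached 37.6 counts per kb at emc and 20.0 at h but 3.15 at ato, and emc alone had a run of dense distal regions upstream.

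Of the 29 regions of the 4 windows, 27 (93.1%) had at least 1 count, against 81.6% of all regions, and 8 (27.6%) were in the top 10% of regions by counts per kb, where 10% of all regions lie by construction (threshold 8.81 counts per kb). Of these 8, emc held 6, da 1, h 1 and ato 0. The windows together held 0.0841% of the counts of the table. They were not equally covered by listed regions, which filled 93.5% of the emc window, 73.8% at h, 63.1% at ato and 45.9% at da. Counts outside listed regions are not in the table.

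The proneural gene ato (FBgn0010433, chr3R:8278052-8279274) consists of a single exon. Its 4 regions had 11 counts (5.49 to 19.7) in 8 of 72 cells (11.1%, Wilson interval 5.74 to 20.4). The region at its TSS (chr3R:8276224-8278126, upstream DNA, 5′ UTR and the start of the coding sequence) had 6 counts in 5 cells, or 3.15 counts per kb (1.16 to 6.86), percentile 54.6 among the 19173 promoter regions. The accessibility of the ato start was thus close to the promoter median of 2.64. Upstream, chr3R:8272784-8273830 had 3 counts in 2 cells and chr3R:8273831-8274862 had 2 counts in 2 cells, and the region over the 3′ end of the gene had 0 counts in 72 cells, which allows up to 3.98 counts per kb and a share of cells up to 5.07%. Most of the coding sequence lay outside the listed regions. The start exceeded the rest of the window by a ratio of 1.90, which was within counting error (0.48 to 7.85).

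Within 10 kb of ato on either side, 14 regions (11 with a count, 2 in the top 10%) had 51 counts in 28 cells, or 3.12 counts per kb (2.32 to 4.10). The densest was the farthest upstream (chr3R:8269842-8270695), with 16 counts in 14 cells and 18.7 counts per kb (10.7 to 30.4); it holds the TSS, 5′ UTR and coding start of CG9630, a neighbour transcribed away from ato. Without this region, chosen after its values were seen, 35 counts and 2.26 counts per kb (1.57 to 3.14) remained, close to the 2.24 of the smaller ato window. Upstream of ato without it, 4 regions had 13 counts (2.14 per kb, 1.14 to 3.66), and the 9 downstream regions had 22 counts (2.33 per kb, 1.46 to 3.53), and the intervals of the sides overlapped.

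Downstream, the densest region (chr3R:8282911-8283878) began 4859 bp past the ato TSS in intergenic DNA. It had 9 counts, or 9.30 counts per kb (4.25 to 17.7), which placed it at percentile 94.2 of the 49602 distal regions (85.03 to 98.5). The 9 counts came from 5 cells, 4 of them from a single cell, and without that cell 5 counts (5.17 per kb) remained. The regions on both sides of it had 5 counts in 4 cells (3.79 per kb) and 2 counts in 1 cell (1.75 per kb). Farther out, the region at the TSS of Nazo had 2 counts in 2 cells. Of the 51 counts of the 10 kb stretch, 20 lay in 4 cells, which had 6, 6, 4 and 4 counts there at totals of 1594, 3890, 3384 and 1634. This downstream region held 6 E-boxes, at the 62.5th percentile of E-box density among regions of like length, within 10%. Of these, 2 were CAGGTG, the core preferred by several proneural dimers. The region also held 1 match to TGATAC, the core of Sine oculis, which is known to act on the 3′ side of ato. At least 1 CAGGTG was found in 25.3% and at least 1 TGATAC in 20.8% of regions of like length.

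The partner gene da (FBgn0267821, chr2L:10388105-10393228) had most of its counts at its start. The region at the TSS (chr2L:10387471-10389192, from the end of mRpS7 through the 5′ UTR into the first intron of da) had 17 of the 24 counts, in 16 cells, or 9.87 counts per kb (5.75 to 15.8), percentile 82.6 among promoter regions. It exceeded the rest of the window by a ratio of 5.13 (2.02 to 14.6). The remaining 5 regions had between 0 and 2 counts each: 0 in a short piece of CG5096, 2 in the intronic and 5′ UTR region that follows the start, 1 at the 3′ end shared with Mdh1, and 2 at each of the regions of Cdk1 and of the divergent starts of Cdk1 and mRpS7. All 6 regions were also in a neighbour's window, so the count of da cannot be told apart from its neighbours by position, although the TSS region holds no start but that of da. With promoter regions left out, the da density was 2.14 counts per kb, from 2 counts in 2 distal regions of 65 and 870 bp. The 24 counts (15.4 to 35.7) were spread over 20 cells (27.8%, 18.8 to 39.05) with at most 2 in 1 cell.

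The inhibitor gene emc (FBgn0000575, chr3L:749400-753492) had the densest start of the 4 members, a dense upstream stretch and, of the 4 windows, the least even spread over cells. Its 11 regions had 92 counts (74.2 to 112.8) in 37 cells (51.4%, 40.1 to 62.6). The region at its TSS (chr3L:749054-749664, 5′ UTR and coding start) had 23 counts in 18 cells, or 37.6 counts per kb (23.9 to 56.5), percentile 99.7 among promoter regions. Per kb it exceeded the TSS region of ato by a ratio of 11.9 (4.73 to 35.8) and that of da by 3.81 (1.95 to 7.60). The ratio to that of h was 1.89 (1.01 to 3.52), whose lower end lies close to 1, so it is not firm. Both regions had 23 counts, so this ratio equals that of their lengths, 1152 bp at h and 611 bp at emc. The TSS region of ato is 1903 bp long, and the part of length in the other ratios was not tested.

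Upstream of emc, 7 regions had 56 counts in 30 cells, or 10.8 counts per kb (8.16 to 14.03). That was 4.28 times the density of the 5 upstream regions of h (2.27 to 8.77), which had 12 counts and 2.52 per kb. It was also 3.40 times that of the 3 other regions of the emc gene itself (1.83 to 6.77), which had 13 counts and 3.18 per kb. The most in any 1 cell were 10 of the 56 counts upstream of emc, 5 of the 13 in its gene and 4 of the 12 upstream of h. Both ratios were not computed without such cells. The region next to the start (chr3L:748289-749053) had 14 counts in 9 cells and 18.3 counts per kb. A second run, of 4 adjoining distal regions (chr3L:744895-747192), had 7, 6, 13 and 9 counts in order of position, and its peak (chr3L:746013-746538, from which the stretch above was printed) reached 24.7 counts per kb (13.2 to 42.3) in 9 cells, percentile 99.4 among distal regions. Between the start and this run lay a region with 4 counts in 2 cells (chr3L:747193-748288, 3.65 per kb), so accessibility was not even across the stretch. The first region of the run (chr3L:744895-745461, 12.3 counts per kb in 6 cells) held 10 E-boxes, 17.6 per kb, the 99.8th percentile of E-box density among regions of like length; the next had 1, the peak 5 and the last 5. Over the whole window CAGCTG was in 7 of 11 regions, against 21.2 to 53.2% of regions of like length.

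The gene emc lies whole inside an intron of hng3, which is transcribed the other way, so all 11 regions also counted for hng3. The 2 regions at the starts of hng3 had 19 counts in 10 cells, 7 of them in 1 cell, or 10.0 counts per kb (6.04 to 15.7). Whether the upstream regions act on emc or on hng3 cannot be told from the counts.

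**Figure D2:**
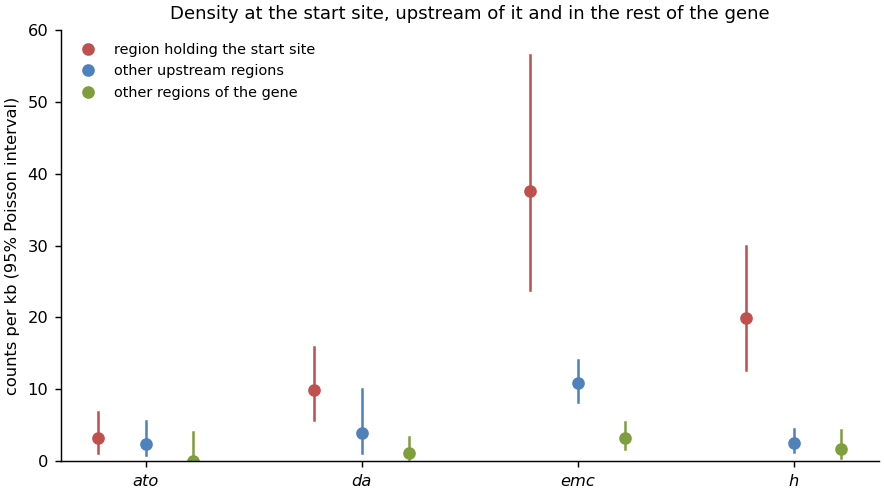
Counts per kb (y axis, points, with 95% Poisson intervals as lines; 72 cells summed) of ato, da, emc and h in the region holding the TSS (red), in the other upstream regions (blue) and in the other regions of the gene (green). The upstream interval of emc (8.16 to 14.03) lies above that of h (1.30 to 4.41), and the 3 intervals of ato overlap.

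The repressor gene h (FBgn0001168, chr3L:8675759-8679253) has 2 annotated starts and shared no region with another gene's window. Its 8 regions, each with a count, had 39 counts (27.7 to 53.3) in 23 cells (31.9%, 22.3 to 43.4). The region that holds both starts (chr3L:8675099-8676250, upstream DNA, 5′ UTR and coding start) had 23 of the 39 counts, in 17 cells with at most 2 each, or 20.0 counts per kb (12.7 to 29.96), percentile 96.4 among promoter regions. It exceeded the rest of the window by a ratio of 8.88 (4.49 to 17.99). Per kb it exceeded the TSS region of ato by a ratio of 6.33 (2.51 to 19.01). The ratio to that of da was 2.02 (1.03 to 4.03), whose lower end lies close to 1, so it is not firm. The region that follows it, still within 500 bp of the second start, had 1 count, and the 3′ region had 3. Of the upstream regions, chr3L:8673282-8674177 had 5 counts, 4 of them in 1 cell, and the others 1 or 2. With windows of 10 kb on either side of every gene, h had 2.56 counts per kb and was at the 40.1st percentile, so its rank depended on the window, as given above.

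Matches to CACGCG, the site class bound by Hairy itself, were found in 5 of the 8 regions of h, against 10.2 to 25.2% of regions of like length, and in 1 of 11 at emc, 0 of 6 at da and 0 of 4 at ato; within 10 kb of ato it was 4 of 14, against 8.71 to 30.3%. The region within 500 bp of the second h start (chr3L:8676348-8677372) held 3 of the 7 matches; 17.1% of regions of like length held any. It also held the single match to ACCGGTT, the Grainyhead core, of the 29 regions, which 3.79% of like regions hold. The TSS region of ato held 11 E-boxes, at the 61.9th percentile of E-box density among regions of like length. They included 2 CACGTG, a core that 18.8% of like regions hold at least once. The TSS region of emc held 6 GAGAG, which 51.5% hold at least once. These matches describe letters, not bound sites.

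Most cells had counts at 1 of the 4 genes or at none. Of the 72 cells, 14 had no count in any of the 4 windows, 35 had counts at 1 gene, 17 at 2, 5 at 3 and 1 at all 4. The median totals of these cells were 2186, 2712, 2729, 2991 and 4839, the last from 1 cell, and so rose with the number of members. The deepest cell, with 5892 counts in all, nevertheless had no count in any of the 4 windows. Cells with counts at both ato and da, the dimer partners, numbered 3, and those with both ato and emc 4, ato and h 4, da and emc 10, da and h 8, and emc and h 9. Single genes had counts in 8 cells at ato, 20 at da, 37 at emc and 23 at h. The overlap expected by chance from these numbers was not computed, so they do not show whether the genes were open in the same or in different cells. At this depth a window without a count in a cell is no evidence of closed chromatin there.

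**Figure D3:**
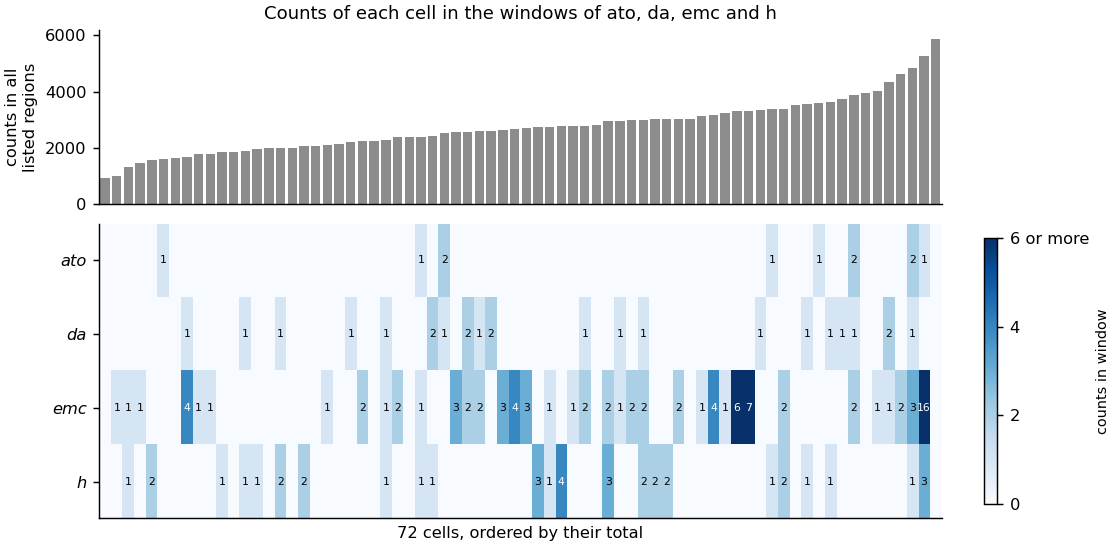
Counts of each of the 72 cells (columns, ordered by total count, which the upper bars show on a linear axis) in the windows of ato, da, emc and h (rows; numbers give the count, colour its size, and blank cells are 0). Counts at emc reached 16 in the cell with 5258 counts in all, whereas ato and da had at most 2 in any cell.

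The spread over cells differed between the genes. The variance over cells was 1.01 times the Poisson variance expected from the cell totals at da, 1.17 at ato, 1.63 at h and 2.66 at emc. Over the 4087 genes with at least 20 counts the median was 1.54 and the range from the 10th to the 90th percentile 1.1 to 2.53. By this ratio the counts of emc were spread less evenly than those of most genes (91.8th percentile), and those of da more evenly (4.88th). Genes were not matched on counts (92 at emc, 24 at da), on which this ratio can depend, and this was not tested. Within 10 kb of ato the ratio was 2.73, above that of emc. At emc, 35 cells had 0 counts, 15 had 1, 12 had 2, 4 had 3 and 6 had 4 or more; these 6 cells held 41 of the 92 counts. The highest, which was also the cell with the second largest total, had 16 counts in 8 of the 11 regions, and the next had 7 and 6. With that cell left out, emc had 76 counts and was at the 92.1st percentile of genes by counts per kb. The variance ratio of emc without that cell was not computed. At h the highest cell had 4 counts and 49 cells had 0.

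The genes whose counts per cell, divided by the cell total, were most like those of each member were listed by Pearson's r over the 72 cells, as a description; all cells come from 1 sort and are shallow, and the values are the extremes of 4084 to 4086 genes. For da they were Der-1 (0.47), CycB (0.46) and lilli (0.45), for emc Saf-B (0.54), lili (0.54) and cpa (0.44), and for h Def (0.45), luna (0.45) and SPoCk (0.44). The median r over all genes was near 0 for each. The window of ato had too few counts for this comparison.

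Of the related genes, all 7 proneural activators (ac, sc, l(1)sc, ase, amos, cato, tap) had counts, and 2 were in the top 10% of genes, against 10% of all genes: ac with 9.84 counts per kb and sc with 7.85, the proneural genes of external bristles. Their median was 3.36, against 2.81 over all genes. The lowest was amos, the proneural gene of olfactory sensilla and the closest relative of ato in the list, with 0.54. This value rests on 2 counts in 2 cells, and its interval (0.065 to 1.95) overlapped that of ato (1.12 to 4.01). The other Hairy/E(spl) repressors were denser: 8 of 10 were in the top 10%, with a median of 14.3 counts per kb. These were dpn, a gene of neural precursors, and the 7 E(spl) bHLH genes, Notch targets that restrict ato, and the highest was E(spl)mbeta-HLH with 24.2. The lowest were cwo, a clock gene, with 1.13, and Hey with 1.53. The E(spl) genes lie in a cluster and are not separate cases: 10 of their 29 distinct regions were in more than 1 window, and all 29 together had 486 counts in 70 cells (16.3 per kb, 14.9 to 17.8).

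Of the 14 genes that act on or with ato in the eye disc (ey, toy, eya, so, dac, hh, dpp, N, Dl, sca, ro, sens, gro, Egfr), 6 were in the top 10%, and all 14 were above the median gene. The list's median was 5.26 counts per kb, against 2.81 over all genes. The highest was sens, a target of Atonal that maintains R8 fate, with 10.9, followed by ro, the homeobox repressor of ato, with 10.4, and so, the eye field factor that acts on ato, with 9.92. The corepressor gene gro had 9.84 and the receptor genes Egfr and N 8.02 and 7.86. The lowest was sca, a secreted factor of R8 spacing, with 3.07. Its interval (2.42 to 3.84) and that of toy (2.72 to 4.65) included the median over all genes. The cells were sorted on a sens enhancer, and the transgene adds a copy of that enhancer, so the density at sens is not independent of the sort. The interval of ato (1.12 to 4.01) lay below those of the 6 genes in the top 10%, which were singled out by their own high density. It also lay below that of Dl (4.92 to 6.96), but overlapped those of ey, toy, eya, dac, hh, dpp and sca.

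**Figure D4:**
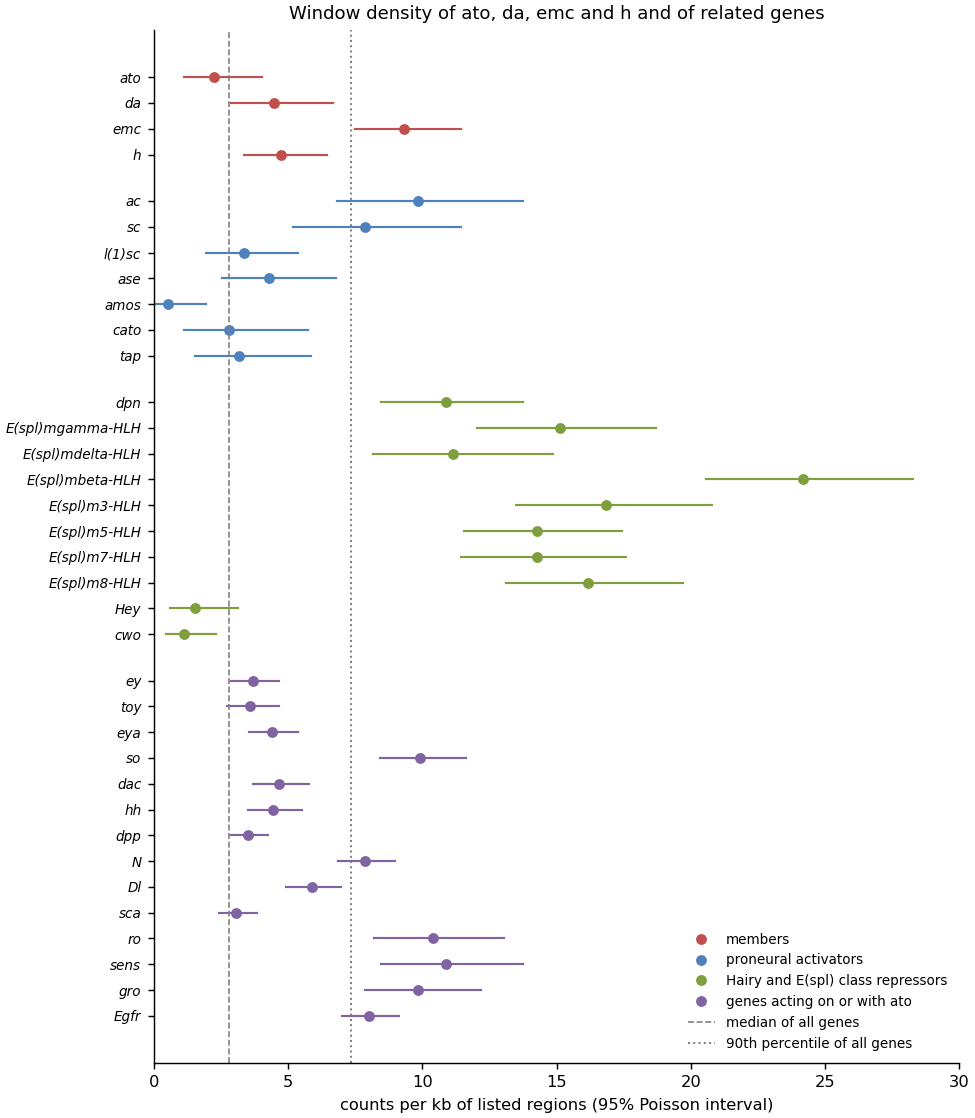
Counts per kb of listed regions (x axis, linear, 72 cells summed; points, with 95% Poisson intervals as lines) of ato, da, emc and h (red), the proneural activators (blue), the Hairy/E(spl) class repressors (green) and genes acting on or with ato (purple), with the median (2.81) and the 90th percentile (7.35) of all genes as vertical lines. Of the 4 members emc lies right of the 90th percentile line and ato left of the median line.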

How the data were processed

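Per the methods of the study, reads were trimmed with fastq-mcf, mapped with Bowtie2 (version 2.2.5) to FlyBase release 6.16 (dm6), and freed of duplicates with Picard; the study's authors chose cells by eye, on aggregation plots. The submitters' processing notes also name FastQC (0.1) and SAMtools (1.2). The authors deposited whole-number counts per cell and cisTarget region, pieces of the genome bounded by conservation, several of which include coding sequence here, without normalisation. The study names featureCounts for its bulk samples and cisTopic for the analysis of the single cells, but for this table the counter, the counting of reads or fragments, any Tn5 shift and the choice of listed regions are not given in the sources used here. Selection by plots can favour cells with many promoter counts. All 72 columns matched a cell title and 0 were unused.

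A region entered whole if it overlapped the window by 1 bp or more; windows were the gene and 5 kb upstream of each TSS. Starts were turned to 1-based coordinates. Genes came from Ensembl release 115, and sequences from RefSeq release 6; the upstream sequence of da is not reported here. h was matched to hry by synonym and Dl to Delta by hand. Counts have exact 95% Poisson intervals, shares Wilson intervals and rate ratios exact conditional intervals, which cover counting error only, as PCR copies carried no molecular identifiers. Motif cores were counted on both strands; CANNTG includes the named E-box cores. Genes were named by rule: the 4 members, the listed related genes and, for each member with at least 20 counts, the 3 genes with at least 20 counts, sharing no region, of highest Pearson r. The members and lists were chosen with earlier results of these data known. Python 3.11.15, numpy 2.4.6, pandas 2.3.3, scipy 1.17.1 and matplotlib 3.10.9 were used, and the scripts were tested on simulated data. Alternatives covered the counting of regions, cell weights, shallow cells (under 1000 counts), window size, promoter and shared regions.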

Additional observations from a re-analysis of the deposited data

How the results depend on the processing

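Of 87 alternative values of 11 results, 76 stayed within the counting interval of the main value and 11 did not. Counting each region at most once per cell gave emc 7.09 counts per kb, and only regions whole inside the window gave it 12.5. With 10 kb on either side of every gene, the density was 6.19 counts per kb at emc (percentile 89.99, just outside the top 10% of genes) and 2.56 at h (percentile 40.1), lower than the 3.12 of ato; with 2 kb upstream, the percentile of emc was 90.2. Distal regions alone gave 2.14 counts per kb at da, from 2 counts only, 6.95 at emc and 2.46 at h. Without the region at the TSS of CG9630, the 10 kb on either side of ato gave 2.26 counts per kb, lower than h. This alternative was chosen after seeing the data, as was leaving out the cell with most counts. The percentile of ato lay between 30.6 and 55.3 over its alternatives. Leaving out regions in another gene's window gave no value for da and emc, whose regions were all shared. No paired analysis was possible because there is 1 group. With 11 counts at ato, its rank among genes was not resolved at this depth (percentile 12.9 to 66.7 over its interval).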
